A study of Homo sapiens with 9 samples.

Results

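Kinetochore and spindle checkpoint genes were followed in WM3248 cells, a human melanoma line, treated with the small molecule ARN22089. The group holds 44 genes listed by what their proteins do, among 14985 genes that could be named in at least 1 library. The list was chosen with earlier results of these data known, so its shares beside all genes are not independent support. It covers the chromosomal passenger complex, CENP-A and its loading factor, the inner and outer kinetochore complexes, the corona, the checkpoint proteins, shugoshin and CDC20. Cells received ARN22089 at 0 µM (DMSO, the vehicle), 4 µM or 6 µM and were lysed 24 h later, with 3 libraries of polyadenylated RNA per dose. All 9 libraries are of this 1 line, grown in a melanoma medium with 2% serum, so other lines were not sampled. ARN22089 was designed to block binding of effector proteins to GTPases of the CDC42 family, and the comparisons ask how transcript levels differ by dose.

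Kinetochores are protein assemblies on the centromeres that attach chromosomes to spindle microtubules in mitosis. CENP-A nucleosomes mark the centromere, the constitutive centromere-associated network (CCAN) sits on them, and the KNL1, MIS12 and NDC80 complexes reach out to the microtubules. Where an attachment is missing, TTK, BUB1, BUB3, BUB1B, MAD1L1 and MAD2L1 act there to hold CDC20 back from the anaphase-promoting complex (APC/C), the ubiquitin ligase that starts anaphase. Many of these genes are transcribed mainly in G2 and mitosis, so that their RNA in bulk samples is also used as a sign of proliferation.

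Each library was deposited as its own transcript assembly with values in FPKM, a fragment count divided by transcript length and by the mapped fragments of the library, so that levels can be compared between genes. The level of a gene here is the sum over its assembled transcripts. A difference is the higher minus the lower dose on the scale log2(FPKM + 1), with its SE, and a gene is called when limma's adjusted p over all tested genes lies under 0.05. Of the 44 genes, 43 were named, 41 of them in every library, and 42 passed the minimum mean of 1 FPKM. CENPL was assembled under its own name in 2 libraries at 0 µM and fell under that minimum. CENPO, on chromosome 2, had no spliced transcript, and in 6 of the 9 libraries only an unnamed single-exon transcript of 5.96 to 13.23 FPKM lay at its end, where a gene on the other strand overlaps. CENPP was listed at 0 in replicate 2 at 4 µM, which can be a failed assembly. Assembly in pieces can raise a sum, so a consensus exon value is given beside it: the mean FPKM per base over exonic bases present in no fewer than 50% of the assemblies of that gene.

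Read counts are not given, so the depth is unknown, and only a relative depth, from coverage over FPKM, could be had: 0.8 to 1.34 of the median library. Summed FPKM per library lay between 587999 and 689699 in 8 libraries and was 1061112 in replicate 3 at 0 µM. Melanocyte and melanoma markers were present in every group, and none of the 8 was at 0 in all libraries. Their summed level ranged from 406 to 1389 FPKM at 0 µM, from 1246 to 2359 FPKM at 4 µM and from 1385 to 2054 FPKM at 6 µM. All 8 were higher at 6 µM than at 0 µM, with a median difference of 1.14, and none was called with the summed or the consensus exon value. With a core exon value, explained below, DCT was called higher (1.59, adjusted p 0.0339). The part of these markers in the results below was not tested. Of the leukocyte markers 3 of 5, and of the keratinocyte and endothelial markers 2 of 4 each, were at 0 in all libraries. The keratinocyte marker KRT10 was present in every library, at 27.8 to 37.9 FPKM, and the endothelial marker PECAM1 at 1.65 to 6.84 FPKM. Keratinocyte markers summed to 29.6 to 30.1 FPKM at 0 µM, 31.4 to 37.4 FPKM at 4 µM and 28.9 to 38.8 FPKM at 6 µM. Fibroblast markers, none of which was at 0 throughout, summed to 16.8 to 60.8 FPKM at 0 µM, 29.9 to 52 FPKM at 4 µM and 29.3 to 54.9 FPKM at 6 µM, and leukocyte markers stayed between 2.62 and 4.45 FPKM except for 146 FPKM in 1 library at 4 µM. The labels do not state that replicate libraries stem from separate cultures. P-values therefore measure the spread among these 9 libraries, and it may be technical.

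At 6 µM, 40 of the 42 tested kinetochore and checkpoint genes had lower levels than at 0 µM, with a median difference of -0.93, and 6 of the 40 turned positive under TPM scaling, which sets the median of all genes at 0.23. Over all 12304 tested genes, 53.6% were lower and the median was -0.03. AURKB, the kinase of the chromosomal passenger complex, was the 1 member called lower, in a comparison in which 0.13% of all genes were called lower and 0.187% higher. At an unadjusted p under 0.05, 28 members (66.7%) were lower, against 9.62% of all genes. In 31 members (73.8%) every library at 6 µM lay below every library at 0 µM, which held for 14.1% of all genes. The single member with all libraries at 6 µM above those at 0 µM was MAD1L1, against 11% of all genes. In these bulk samples fewer dividing cells and less RNA per cell cannot be told apart.

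With the consensus exon value, 19 of 43 members were called lower at 6 µM and none higher, where 2.61% of all genes were called lower and 1.71% higher. A value restricted to bases covered in every library that assembled the gene, added after the data were seen and here called the core exon value, also called 19 members lower, against 2.66% of all genes. The 2 values shared 17 of these members, and 21 were called with at least 1 of them. With the replicate number as a block, the summed value called 0 members lower, and 1 of all 12304 genes. The consensus exon value with the block called 20 members lower, of which 16 were among the 19, and 414 of all 12305 genes. These counts depend on single libraries, as do those over all genes. Without 1 library, the consensus exon value called 11 to 566 genes in either direction at 6 µM. The consensus count was 19 or 21 without replicate 3 at 4 µM or at 6 µM, and 7 or 8 without replicate 1 at 4 µM or at 0 µM. Leaving out replicate 2 at 4 µM or at 0 µM gave 3, leaving out replicate 3 at 0 µM gave 2, and leaving out either replicate 1 or replicate 2 of the 6 µM dose gave 0. The median difference over the members lay between -0.97 and -0.70 in all of these.

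**Figure D1:**
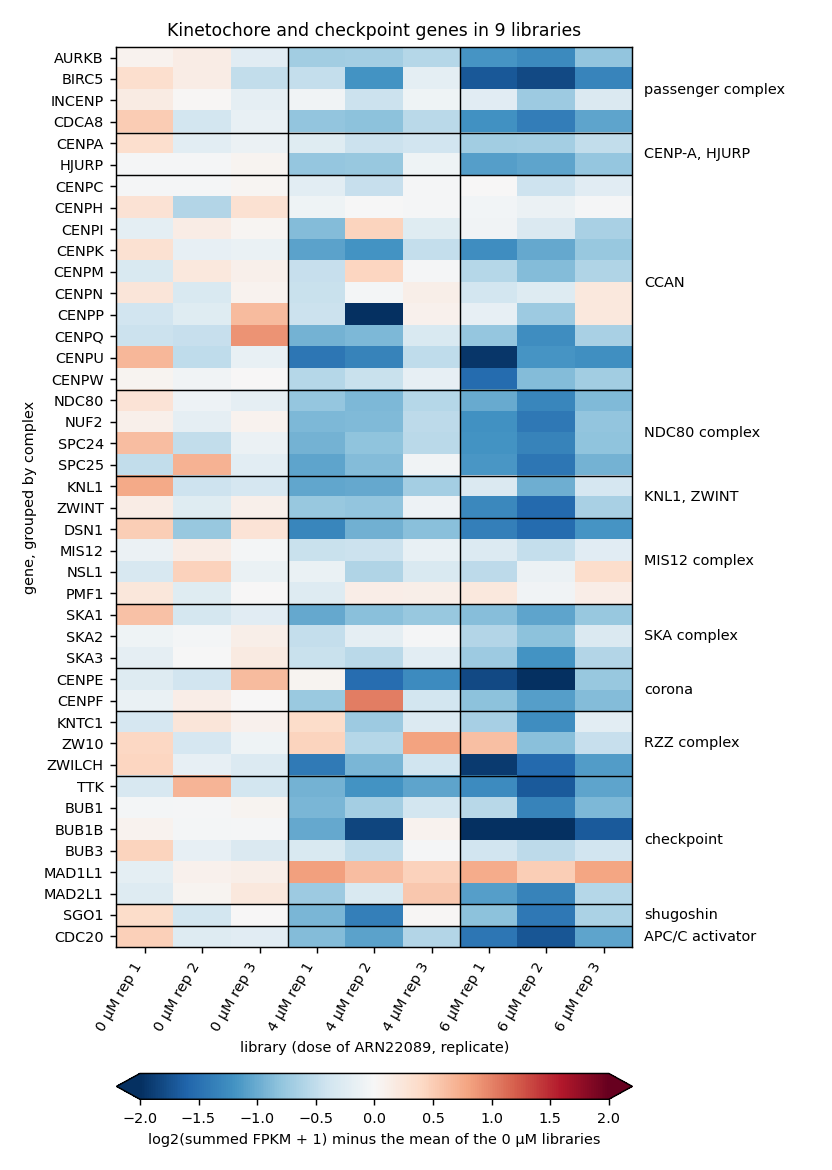
Levels of the 42 tested genes in the 9 libraries, with genes as rows grouped by complex and libraries as columns in order of dose. Colour is log2(summed FPKM + 1) minus the mean of the 0 µM libraries, blue for lower and red for higher. The columns at 6 µM are blue for most genes, MAD1L1 is red in all 6 treated libraries, and replicate 3 at 4 µM is paler than the other libraries at 4 µM.

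At 4 µM, 39 of the 42 members were lower than at 0 µM, with a median difference of -0.59, where 50.3% of all genes were lower. None was called, and of all genes 0.00813% were called lower and 0.0569% higher. By limma's unadjusted p under 0.05, 16 members were lower (38.1%, against 4.6% of all genes) and 1, MAD1L1, was higher (2.38%, against 6.25% of all genes). In 19 members (45.2%) every library at 4 µM lay below every library at 0 µM, which held for 8.41% of all genes. Between the treated doses, 35 of the 42 members were lower at 6 µM than at 4 µM, where 55.2% of all genes were, and the median difference was -0.33. None was called between these doses, with 0.0244% of all genes called lower and 0.0325% higher, and 8 were lower at an unadjusted p under 0.05 (19%, against 2.96% of all genes). The mean levels stepped down from each dose to the next in 32 of 42 members (76.2%), against 26.6% of all genes. The 4 µM and 6 µM comparisons share the libraries at 0 µM.

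The shift differed between libraries of a dose. Measured from the mean of the 0 µM libraries, the median member stood at 0.09, -0.13 and 0.01 in replicates 1 to 3 at 0 µM, at -0.73, -0.74 and -0.23 at 4 µM, and at -0.82, -1.14 and -0.65 at 6 µM. The median of all genes stayed between -0.04 and 0.01 in each library. Replicate 3 was thus the least shifted library at both treated doses. At 4 µM it was the highest of its dose for 30 of 42 members (38.7% of all genes), and at 6 µM for 31 (34.9% of all genes). Replicate 2 at 6 µM was the lowest of its dose for 33 members (36.5% of all genes). The summed FPKM of the 42 members was 1334, 1143 and 1150 FPKM at 0 µM, 801, 799 and 1040 FPKM at 4 µM, and 635, 555 and 760 FPKM at 6 µM, with no overlap between 0 µM and either treated dose. The labels give same-numbered libraries a shared mark. Within replicate 1, 2 and 3 the median member differed by -0.89, -0.85 and -0.69 between 6 µM and 0 µM, and by -0.65, -0.53 and -0.27 between 4 µM and 0 µM.

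**Figure D2:**
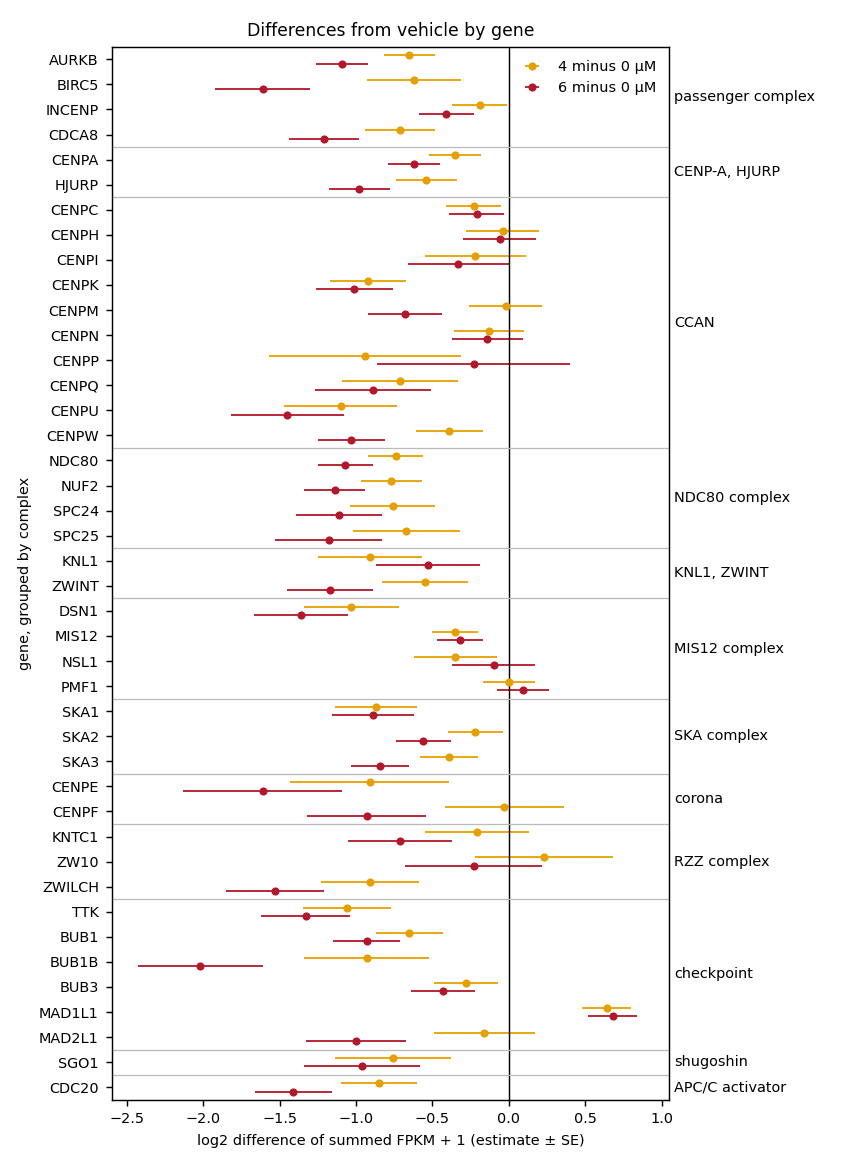
Difference of each tested gene from the 0 µM libraries, at 4 µM in orange and at 6 µM in red, as log2(summed FPKM + 1). Points are limma estimates and bars their SE, with 3 libraries per dose. Most points lie left of 0 at both doses and MAD1L1 lies right of it at both.

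Promoter letters were read for every listed gene with a window, whatever its values. Promoters of many mitotic genes carry CCAAT boxes, bound by the factor NF-Y, and a cell cycle homology region with the letters TTTGAA, at which the DREAM and MuvB complexes bind. RefSeq windows (GRCh38.p14) were available for 36 of the 44 genes, in 41 windows since some genes have several listed starts, and the 250 bases before each start were searched on both strands. CCAAT was found in 27 of the 41 windows (65.9%), of 24 genes, against 32% of all 35116 windows. TTTGAA was found in 11 windows (26.8%), of 10 genes, against 13.3% of all windows, and TTCGAA in 0, against 1.19%. Each set of letters was counted on its own, whether or not it overlapped another. Whether the letters go with the direction of a gene was not tested, and the stretches printed here are examples. CCAAT was found as well before PMF1, which differed by 0.09 at 6 µM, and before CENPC and CENPN, which differed by -0.21 and -0.14. Below are the bases just before the RefSeq start of 3 checkpoint genes that were lower at 6 µM (CDC20, BUB1 and BUB1B). Those before the listed start of MAD1L1, whose summed value was higher, follow. Capitals mark CCAAT or its reverse complement ATTGG, and TTTGAA. The windows are chr1:43358861-43358980 on the plus strand for CDC20, chr2:110678064-110678183 on the minus strand for BUB1, chr15:40160949-40161068 on the plus strand for BUB1B and chr7:2232946-2233065 on the minus strand for MAD1L1.
CDC20: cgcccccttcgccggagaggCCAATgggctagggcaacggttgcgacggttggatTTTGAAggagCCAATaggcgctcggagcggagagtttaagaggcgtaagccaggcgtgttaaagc
BUB1: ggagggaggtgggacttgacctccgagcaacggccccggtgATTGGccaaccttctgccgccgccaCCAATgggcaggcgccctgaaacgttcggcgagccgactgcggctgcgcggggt
BUB1B: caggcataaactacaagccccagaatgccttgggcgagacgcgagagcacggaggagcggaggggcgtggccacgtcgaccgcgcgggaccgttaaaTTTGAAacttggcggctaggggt
MAD1L1: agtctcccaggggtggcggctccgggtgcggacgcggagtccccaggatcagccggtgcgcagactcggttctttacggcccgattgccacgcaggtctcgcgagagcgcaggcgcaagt
The CDC20 stretch holds CCAAT at 2 places with TTTGAA between them, the BUB1 stretch holds CCAAT once on each strand, and BUB1B holds TTTGAA close to its start. The MAD1L1 stretch holds none of these letters, which says only that they are not in that window. It lies before the start of the long form, which averaged 7.54 FPKM at 6 µM and 10.8 FPKM at 0 µM. The higher sum of MAD1L1 lay in a short form that starts near position 1940557, and the bases before that start were not read.

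The chromosomal passenger complex corrects wrong attachments at the inner centromere. AURKB (chr17:8204731-8210575) is its kinase and had 74.7, 78.9 and 60.4 FPKM at 0 µM, 43.3, 44 and 47.5 FPKM at 4 µM, and 30.7, 28.6 and 40.4 FPKM at 6 µM. The 3 doses did not overlap. AURKB averaged 33.2 ± 6.26 FPKM at 6 µM and 71.3 ± 9.71 FPKM at 0 µM (SD, n = 3 each), 46.6% of the mean at 0 µM. The difference of -1.09 ± 0.17 had an adjusted p of 0.0478, close to the threshold, and 0.0744 with the replicate block. It was lost when any of 8 of the 9 libraries was left out, where its adjusted p lay between 0.0587 and 0.175, and kept without replicate 3 at 6 µM (0.0326). With the consensus exon value the difference was -0.96 ± 0.14 with an adjusted p of 0.0277. The sum in replicate 2 at 0 µM included a 5-exon piece of 33.6 FPKM, and the consensus exon value there was 55.1 FPKM. By that value the mean of AURKB at 6 µM was 50.6% of the mean at 0 µM.

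BIRC5 (survivin), which docks the complex at centromeres, had 115, 100 and 64.4 FPKM at 0 µM, 65, 38.9 and 79 FPKM at 4 µM, and 27.4, 25.2 and 35.7 FPKM at 6 µM. All libraries at 6 µM lay below those at 0 µM, with a difference of -1.61 ± 0.31 and an adjusted p of 0.0619. Its transcripts did not end at the same place in all libraries. In replicates 1 and 2 at 0 µM and replicates 1 and 3 at 4 µM the leading 4-exon transcript was 463 to 617 bases long and reached 58.9 to 101 FPKM. In the other libraries the leading 4-exon transcript was 2150 to 2267 bases long, at 25.2 to 64.4 FPKM. The consensus exon value, which averages over the longer end, differed by -0.28 (adjusted p 0.681), and the core exon value by -1.60 (adjusted p 0.0346). CDCA8 (borealin), its partner at the centromere, had 41.5, 22.1 and 25.9 FPKM at 0 µM, 16.3, 15.9 and 19.4 FPKM at 4 µM, and 11.9, 10.4 and 13.3 FPKM at 6 µM. Neither treated dose overlapped 0 µM, and the difference at 6 µM was -1.21 ± 0.23 (adjusted p 0.0619). Its consensus difference was -0.85 ± 0.44 (adjusted p 0.269) and its core difference -1.20 ± 0.22 (adjusted p 0.0314). INCENP, the scaffold of the complex, differed by -0.41 ± 0.18 at 6 µM, and by -0.15 ± 0.22 in its consensus value. Its core difference was -0.54 ± 0.15 (adjusted p 0.0827).

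At the centromere itself, HJURP, the chaperone that loads CENP-A, had 31.2, 30.9 and 32.7 FPKM at 0 µM, 18, 18.3 and 29.7 FPKM at 4 µM, and 14.2, 14.7 and 18.1 FPKM at 6 µM. In its sum, replicate 3 at 4 µM stayed near the level at 0 µM while the other libraries at that dose did not. The core exon value there was 29.5 FPKM, but the consensus exon value was 21.7 FPKM. Consensus exon values were 17.7 and 18.3 FPKM in replicates 1 and 2 at 4 µM, and 30.9 to 32.6 FPKM at 0 µM. The summed difference at 6 µM was -0.98 ± 0.20 (adjusted p 0.0692) and the consensus difference -0.98 ± 0.13 (adjusted p 0.0235). CENPA, the histone variant, averaged 11.9 ± 1.04 FPKM at 6 µM and 19 ± 4.33 FPKM at 0 µM (SD, n = 3 each), with a difference of -0.62 ± 0.17 (adjusted p 0.122).

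The constitutive centromere-associated network links CENP-A chromatin to the outer kinetochore. Its 10 tested genes were all lower at 6 µM with a median of -0.51 and a range of -1.45 to -0.06, although CENPC, CENPH, CENPN and CENPP turned to between 0.02 and 0.21 under TPM scaling, which shifts all genes up. With the consensus exon value 3 of 11 were called lower, CENPK, CENPU and CENPW. Of these, only CENPW was also called with the core exon value (adjusted p 0.0412, against 0.0579 for CENPK and 0.09 for CENPU) and with the consensus exon value under the replicate block (0.0312, against 0.0548 for both others), while the block brought CENPI (0.0495) and CENPQ (0.0413) under the threshold. CENPU had 36.5, 15.7 and 20.5 FPKM at 0 µM, 7.74, 8.47 and 15.7 FPKM at 4 µM, and 5.21, 9.55 and 9.17 FPKM at 6 µM. Its difference at 6 µM was -1.45 ± 0.37 (adjusted p 0.107), and replicate 1 at 0 µM stood above the rest. CENPW, a histone-fold protein bound to CENP-T, was the most abundant gene of the network, with 69, 63.1 and 66.7 FPKM at 0 µM, 44.2, 48.3 and 59.3 FPKM at 4 µM, and 22.2, 36 and 40.5 FPKM at 6 µM. The 3 doses did not overlap, and the difference at 6 µM was -1.03 ± 0.22 (adjusted p 0.0764, and 0.0348 with the consensus exon value).

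CENPC, CENPH and CENPN differed little at 6 µM, by -0.21 ± 0.18, -0.06 ± 0.24 and -0.14 ± 0.23, and none was called. CENPC, which binds the CENP-A nucleosome, averaged 4.38 ± 0.767 FPKM at 6 µM and 5.19 ± 0.18 FPKM at 0 µM (SD, n = 3 each). CENPH averaged 5.27 ± 0.198 FPKM at 6 µM and 5.80 ± 2.11 FPKM at 0 µM. CENPN, which reads the CENP-A nucleosome with CENPL, had 23.6, 15.9 and 20.9 FPKM at 0 µM, 14.3, 19.3 and 21.6 FPKM at 4 µM, and 15.2, 16.4 and 23.2 FPKM at 6 µM. These ranges overlap, and its consensus difference at 6 µM was 0.05 ± 0.24. Its core exon value was 12.6 to 15.6 FPKM at 6 µM and 16.4 to 22.4 FPKM at 0 µM. That difference of -0.41 ± 0.17 was not called (adjusted p 0.186). CENPL fell under the minimum for the summed value. Its consensus difference was -1.04 ± 0.32 (adjusted p 0.0923), with 63.7% of that value from transcripts named for other genes. The summed differences of CENPI, CENPK, CENPM, CENPP and CENPQ lay between -1.01 and -0.23.

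The NDC80 complex, the rod that binds the microtubule, had 4 tested subunits of similar summed differences. At 6 µM they differed by -1.07 to -1.18 and at 4 µM by -0.67 to -0.77, and all 4 were called lower at 6 µM with the consensus exon value. NUF2 had 32, 26.2 and 31.3 FPKM at 0 µM, 15.5, 15.7 and 20.3 FPKM at 4 µM, and 12.3, 10.4 and 16.8 FPKM at 6 µM. Neither treated dose overlapped 0 µM, and the difference at 6 µM was -1.14 ± 0.20 (adjusted p 0.0552, and 0.0277 with the consensus exon value). SPC25, at the end of the rod that faces the chromosome, had 14.8, 34.9 and 18.2 FPKM at 0 µM, 9.72, 11.1 and 20 FPKM at 4 µM, and 8.93, 7.12 and 10.5 FPKM at 6 µM. Its 34.9 FPKM in replicate 2 at 0 µM is 19.4 FPKM with the consensus exon value, which differed by -0.93 ± 0.19 (adjusted p 0.0377). NDC80 averaged 8.54 ± 1.39 FPKM at 6 µM and 19 ± 3.54 FPKM at 0 µM (SD, n = 3 each), and SPC24 averaged 7.91 ± 1.74 FPKM at 6 µM and 19.1 ± 8.03 FPKM at 0 µM. The sum of SPC24 in replicate 1 at 0 µM was 28.1 FPKM, against 18 FPKM with the consensus exon value. By that value SPC24 differed by -0.92 ± 0.19 at 6 µM, against -1.11 ± 0.28 in its sum.

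KNL1 is the platform on which BUB1 and BUB3 assemble, and ZWINT binds it and recruits the RZZ complex. ZWINT had 67.7, 51 and 64.9 FPKM at 0 µM, 35.4, 34.8 and 56.8 FPKM at 4 µM, and 24.2, 20 and 38.5 FPKM at 6 µM. All libraries at 6 µM lay below those at 0 µM, with a difference of -1.17 ± 0.28 (adjusted p 0.091). Its consensus difference had an adjusted p of 0.0504, and of 0.0283 with the replicate block. KNL1 was lower, with a summed difference of -0.53 ± 0.34 and a consensus difference of -0.90 ± 0.20 (adjusted p 0.0475), its sum being 13.2 FPKM in replicate 1 at 0 µM against 5.08 FPKM with the consensus exon value.

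The MIS12 complex, which joins the inner to the outer kinetochore, was divided in its summed values. DSN1 had 44.7, 18.1 and 38.2 FPKM at 0 µM, 12.1, 15.7 and 17.2 FPKM at 4 µM, and 11.6, 10.2 and 13.3 FPKM at 6 µM. Its summed difference at 6 µM was -1.36 ± 0.31 (adjusted p 0.086), against a consensus difference of -0.74 ± 0.17 (adjusted p 0.0486, and 0.0562 with the replicate block). The consensus exon values of DSN1 in replicates 1 and 3 at 0 µM were 21.6 and 18.7 FPKM. MIS12 had 12.8, 15.5 and 13.6 FPKM at 0 µM, 9.92, 10.1 and 12.4 FPKM at 4 µM, and 11.4, 9.78 and 11.8 FPKM at 6 µM. It lay a little lower in every treated library, by -0.32 ± 0.15 at 6 µM (adjusted p 0.308). PMF1 had 38.6, 27.7 and 33.1 FPKM at 0 µM, 27.4, 36.3 and 35.8 FPKM at 4 µM, and 38.1, 31.4 and 36 FPKM at 6 µM. Its doses overlapped, with a difference of 0.09 ± 0.17 (adjusted p 0.817). NSL1 differed by -0.10 ± 0.27 in its sum, and by 0.19 under TPM scaling. Its consensus difference was -0.45 ± 0.12 (adjusted p 0.0659) and its core difference -0.32 ± 0.18 (adjusted p 0.305), neither called. The sums of NSL1 in replicate 2 at 0 µM and replicate 3 at 6 µM were 40.8 and 37.8 FPKM. With the consensus exon value they were 27.8 and 18.3 FPKM.

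The SKA complex steadies NDC80 on the microtubule. SKA1 had 8.54, 4.01 and 4.44 FPKM at 0 µM, 2.13, 2.58 and 2.77 FPKM at 4 µM, and 2.55, 2.08 and 2.76 FPKM at 6 µM. The treated doses did not overlap 0 µM and were alike, with differences of -0.87 ± 0.27 at 4 µM and -0.89 ± 0.27 at 6 µM (adjusted p 0.371 and 0.148). SKA2 and SKA3 differed by -0.56 ± 0.18 and -0.84 ± 0.19 at 6 µM, and SKA3 was called lower with the consensus exon value (adjusted p 0.0348).

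Both corona proteins were called lower at 6 µM with the consensus exon value. The motor CENPE, which carries chromosomes to the metaphase plate, had 16, 14.6 and 30.6 FPKM at 0 µM, 20.1, 6.08 and 7.46 FPKM at 4 µM, and 4.84, 3.19 and 11 FPKM at 6 µM. Its summed difference of -1.61 ± 0.52 had an adjusted p of 0.172, and the consensus difference of -1.27 ± 0.22 one of 0.029. The sums of CENPE in replicate 3 at 0 µM and replicate 1 at 4 µM included 5-exon pieces of 23.3 and 14.6 FPKM. With the consensus exon value these libraries had 9.15 and 4.01 FPKM. CENPF, a large coiled-coil protein of the corona, had a summed difference of -0.93 ± 0.39 (adjusted p 0.267) and a consensus difference of -1.07 ± 0.16 (adjusted p 0.0277). Its sum of 69.9 FPKM in replicate 2 at 4 µM, the highest of all 9 libraries, held a 6-exon transcript of 59.9 FPKM beside a 17-exon one of 10 FPKM, and the consensus exon value there was 18.7 FPKM.

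The RZZ complex brings dynein and MAD1L1 to unattached kinetochores. ZWILCH had 33, 21.4 and 19.8 FPKM at 0 µM, 8.45, 12.4 and 18 FPKM at 4 µM, and 5.69, 7.55 and 10.6 FPKM at 6 µM. Neither treated dose overlapped 0 µM, and the difference at 6 µM was -1.53 ± 0.32 (adjusted p 0.0692, and 0.0475 with the consensus exon value). KNTC1 differed by -0.71 ± 0.34 (consensus difference -0.77, adjusted p 0.0762, and 0.0296 with the replicate block). ZW10 differed by -0.23 ± 0.45 in its sum, and by 0.05 with TPM scaling. Its consensus difference was -0.66 ± 0.21 (adjusted p 0.0988) and its core difference -0.70 ± 0.20 (adjusted p 0.0862), neither called. The sum of ZW10 in replicate 1 at 6 µM was 24.6 FPKM, against 9.57 FPKM with the consensus exon value.

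Of the checkpoint kinases and MAD and BUB proteins, 5 of 6 were lower at 6 µM, and BUB1, BUB1B and TTK were called with the consensus exon value. TTK (MPS1), the kinase that starts the signal, had 13, 26.9 and 12.6 FPKM at 0 µM, 8.1, 6.65 and 7.39 FPKM at 4 µM, and 6.32, 4.43 and 7.41 FPKM at 6 µM. Its summed difference was -1.33 ± 0.29 (adjusted p 0.0788) and its consensus difference -1.01 ± 0.16 (adjusted p 0.0277). The 26.9 FPKM of TTK in replicate 2 at 0 µM was 12.9 FPKM with the consensus exon value. BUB1, the kinase that docks the other checkpoint proteins, averaged 12.2 ± 3.53 FPKM at 6 µM and 23.6 ± 0.895 FPKM at 0 µM (SD, n = 3 each), a difference of -0.93 ± 0.22 (adjusted p 0.0901, and 0.0277 with the consensus exon value).

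BUB1B (BUBR1), a part of the complex that inhibits the APC/C, had the largest summed difference of the 42 members. It had 57.9, 53.6 and 54.4 FPKM at 0 µM, 26.8, 14.8 and 58 FPKM at 4 µM, and 12.3, 10.4 and 16.6 FPKM at 6 µM, a difference of -2.02 ± 0.41 (adjusted p 0.069). Its assembly differed by dose. All 3 libraries at 6 µM and replicate 2 at 4 µM held 1 transcript of 23 exons, while the other 5 held a front piece of 2 to 5 exons and a longer back piece of 18 to 21 exons, whose values add, and replicate 3 at 0 µM held a further one of 11 exons. In replicate 1 at 0 µM these were 32.2 and 25.7 FPKM. The consensus exon values were 26, 24.8 and 28 FPKM at 0 µM and 11.5, 10.3 and 16.6 FPKM at 6 µM, with a difference of -1.01 ± 0.23 (adjusted p 0.0492). MAD2L1, which is converted on MAD1L1 into the form that binds CDC20, averaged 26.8 ± 7.94 FPKM at 6 µM and 53.9 ± 8.92 FPKM at 0 µM (SD, n = 3 each), with 78.1 FPKM in replicate 3 at 4 µM. The transcript in that library was 707 bases long, against 1079 to 1759 bases in the others. Its consensus exon value was 37.7 FPKM, against 32.1 to 44.4 FPKM at 0 µM. The summed difference of MAD2L1 at 6 µM of -1 ± 0.33 (adjusted p 0.181) and its consensus difference of -0.67 ± 0.27 (adjusted p 0.164) were not called. BUB3, the adaptor that carries BUB1 and BUB1B to KNL1, differed by -0.43 ± 0.21.

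**Figure D3:**
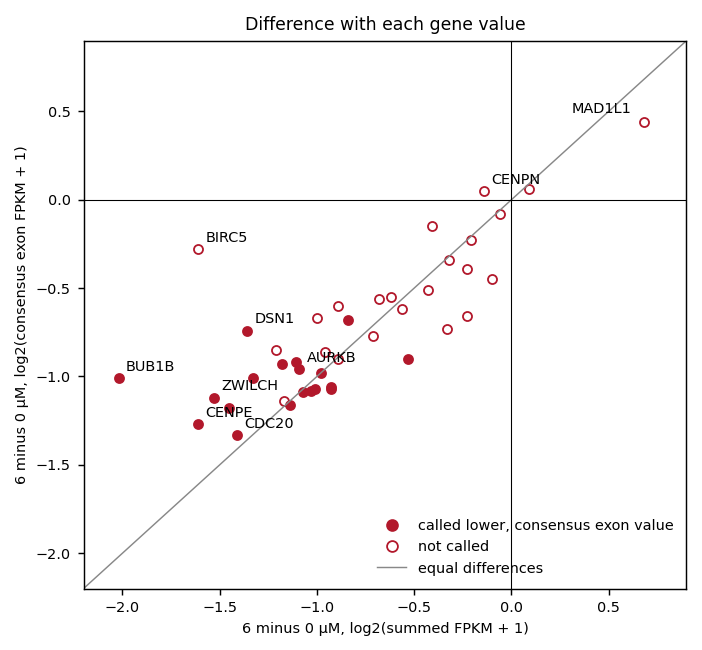
Difference between 6 and 0 µM of each of the 42 genes with the summed value (horizontal axis) and with the consensus exon value (vertical axis), both on the log2 scale. Filled points were called lower with the consensus exon value, and the grey line marks equal differences. BUB1B at -2.02 and -1.01 and BIRC5 at -1.61 and -0.28 lie farthest above the line.

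MAD1L1 (chr7:1815795-2232945), the scaffold for MAD2L1 at unattached kinetochores, went the other way. It had 28.1, 34.4 and 35 FPKM at 0 µM, 58.2, 50.3 and 44.9 FPKM at 4 µM, and 54.8, 45.9 and 56.8 FPKM at 6 µM. Every treated library lay above every library at 0 µM, while the treated doses overlapped. The differences were 0.64 ± 0.16 at 4 µM and 0.68 ± 0.16 at 6 µM, with adjusted p of 0.278 and 0.0887, so that it was not called. With the consensus exon value the difference at 6 µM was 0.44 ± 0.14 (adjusted p 0.108), and it was positive under all alternatives tried, from 0.44 to 0.98.

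The higher sum lay in a short transcript. In all 9 libraries MAD1L1 was assembled in a long form of 19 exons, 2653 to 2720 bases, that starts at the gene's listed start, and in a form of 4 exons, 1302 to 1311 bases, that ends at the same place and starts inside the gene near position 1940557. The short form had 16.5, 23.8 and 25 FPKM at 0 µM, 47.1, 39.9 and 39.9 FPKM at 4 µM, and 47, 39.1 and 48.8 FPKM at 6 µM. The long form had 11.6, 10.6 and 10.1 FPKM at 0 µM, 11.2, 10.4 and 4.95 FPKM at 4 µM, and 7.79, 6.85 and 7.98 FPKM at 6 µM. At 6 µM against 0 µM the short form differed by 23.2 FPKM and the long form by -3.24 FPKM, both without overlap, and each with a two-sided exact permutation p of 0.1, the smallest that 3 libraries against 3 can give. The share of the short form was 66.3% ± 6.79 at 0 µM, 83% ± 5.19 at 4 µM and 85.6% ± 0.461 at 6 µM (SD, n = 3 each). The split between forms that share their last exons is Cufflinks' estimate, and these forms were looked at after the gene's values were seen.

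**Figure D4:**
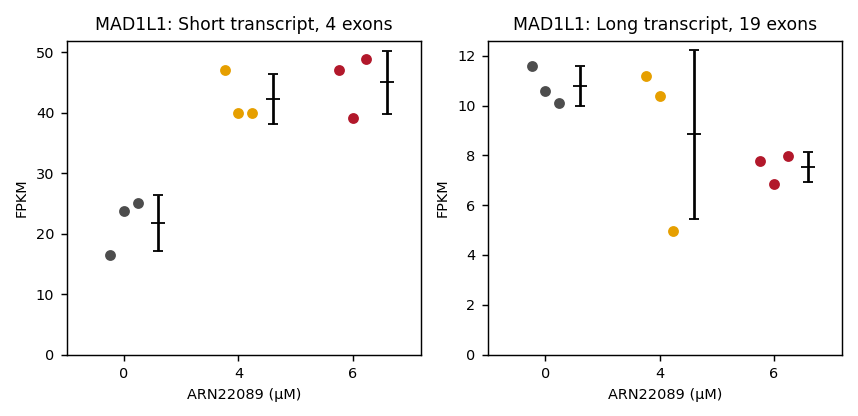
FPKM of the short, 4-exon form (left) and the long, 19-exon form (right) of MAD1L1 in each library by dose of ARN22089. Points are libraries, replicates 1 to 3 from left to right, and bars the mean ± SD (n = 3). The short form lies between 39.1 and 48.8 FPKM in the treated libraries and at or below 25 FPKM at 0 µM, while the long form at 6 µM lies below its values at 0 µM.

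SGO1 (shugoshin), which protects centromeric cohesin, had 10.7, 6.06 and 8.15 FPKM at 0 µM, 3.84, 2.53 and 8.21 FPKM at 4 µM, and 4.14, 2.39 and 4.89 FPKM at 6 µM. Its level at 6 µM lay below that at 0 µM in all libraries, by -0.96 ± 0.38 (adjusted p 0.243), and replicate 3 at 4 µM matched the level at 0 µM. CDC20, the activator of the APC/C that the checkpoint restrains, had 118, 70.5 and 72.4 FPKM at 0 µM, 45.8, 39.7 and 55.8 FPKM at 4 µM, and 30.5, 25 and 40.1 FPKM at 6 µM. Neither treated dose overlapped 0 µM. CDC20 averaged 31.9 ± 7.66 FPKM at 6 µM and 87.1 ± 27.1 FPKM at 0 µM (SD, n = 3 each), with a difference of -1.41 ± 0.25 (adjusted p 0.0619, and 0.0305 with the consensus exon value).

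**Figure D5:**
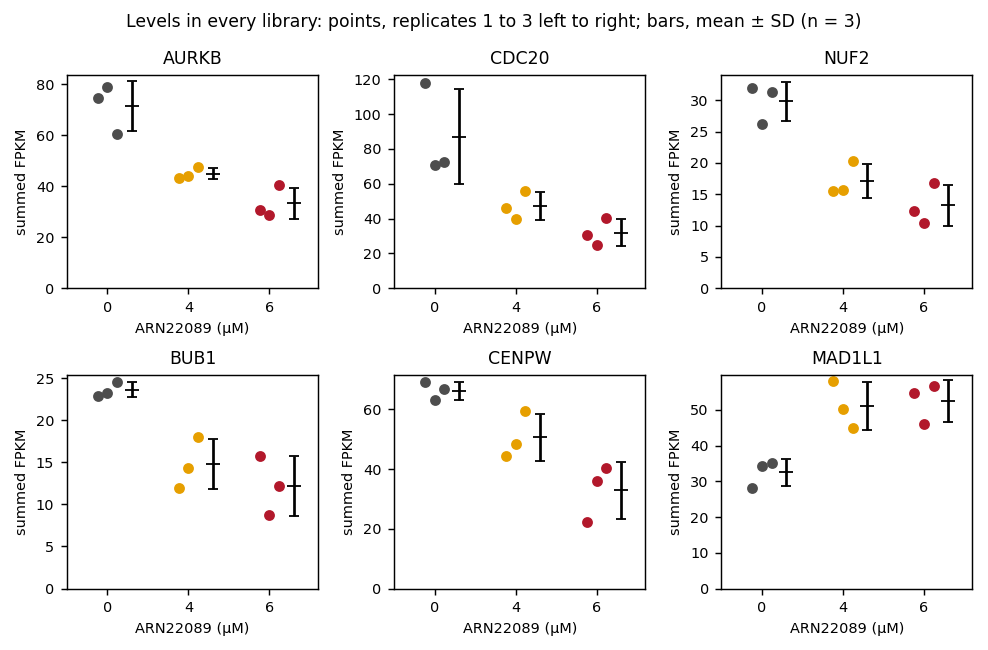
Summed FPKM of AURKB, CDC20, NUF2, BUB1, CENPW and MAD1L1 in each library by dose of ARN22089. Points are libraries, replicates 1 to 3 from left to right, and bars the mean ± SD (n = 3). All libraries at 6 µM lie below those at 0 µM for the first 5 genes and above them for MAD1L1.

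Genes that work beside the kinetochore were read from further lists, none of which had a gene called lower at 4 µM. At 6 µM, 53.6% of all genes were lower and 0.13% were called lower, or 2.61% by consensus difference. Of 14 other kinetochore and centromere genes tested, 9 were lower at 6 µM than at 0 µM, with a median of -0.53, and 0 were called, against 3 by consensus difference (OIP5, SGO2 and SPDL1). SPDL1, which recruits dynein to kinetochores, differed by -1.27 (adjusted p 0.0527, and 0.0386 for its consensus difference of -0.96) and TRIP13, the ATPase that takes MAD2L1 complexes apart, by -1.16 (adjusted p 0.101). CENPB and CENPT, both centromere proteins, differed by 0.06 and 0.05. Of 20 APC/C subunits and partners, 11 were lower, with 0 called and a median of -0.16, against -1.41 for CDC20 itself. By consensus difference 1 of these 20 was called, ESPL1 (separase, the protease that cuts cohesin), at -1.15 (adjusted p 0.0196). Of 13 cohesin genes, 11 were lower with a median of -0.55, and the core subunit SMC3 was called (-1.22, adjusted p 0.0478), though not by its consensus difference (-0.66, adjusted p 0.067), by which 3 other cohesin genes were, SMC1A (0.0288), RAD21 (0.0441) and CDCA5 (0.0348).

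Lists of other proliferation genes gave values like those of the kinetochore genes. All 12 genes of the MCM helicase, CDC45 and GINS were lower at 6 µM with a median of -1.10, and 15 of 16 genes around CDK1 and the mitotic cyclins were lower with a median of -0.89, with 0 called in either list. With the consensus exon value 8 of the 12 and 9 of the 16 were called lower, against 2.61% of all genes. By the summed value 53.6% of all genes were lower at 6 µM and 0.13% were called lower. A difference between these lists and the kinetochore genes was not tested.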

How the data were processed

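The submitters' processing notes list Cufflinks 2.2.1 beside TopHat2 2.1, Bowtie2 2.2.7, Trimmomatic and SAMtools 1.9. The deposited files hold Cufflinks assemblies with FPKM per transcript in a text column, 1 file per library. The notes name GRCh37, but 732 transcripts lie on scaffolds named as in GRCh38, and coordinates here are GRCh38.

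Spliced transcripts (193769, of which 95.8% had a matching intron length) took the same-strand RefSeq gene that shared most intron lengths with them. FPKM was summed per gene, and genes whose mean reached 1 FPKM entered 1 fit of log2(FPKM + 1) over all libraries (limma 3.58.1 in R 4.3.3, trend, 6 residual degrees of freedom, Benjamini-Hochberg). The design had foreseen gene-level values, which the naming supplied. An exact 0 can be a failed assembly, and 418 to 612 tested genes were at 0 per library. Fold changes of low genes are understated. Strand comes from splice sites, so overlapping genes are uncertain.

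Same-numbered libraries share a mark in the labels, so that the numbers pair them. The fit had no block for the pairs, and one with it is among the alternatives. Their deviations from the dose means correlated at -0.04 to 0.12 with the summed value and at 0 to 0.2 with the consensus exon value. Alternatives were the 2 exon values, TPM, median ratio scaling, a pseudocount of 0.1, no minimum mean, the block, no trend, and leaving out each library. The fit was tested on simulated data.

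Members and lists were chosen with earlier results of these data known. Per complex, values in every library are given for called members, otherwise for those with the largest differences and those of opposite sign. BUB1, CENPF, the pieces of BUB1B and BIRC5 and the forms of MAD1L1 were chosen after their values were seen.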

Additional observations from a re-analysis of the deposited data

How the results depend on the processing

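The direction of the members as a group held under every alternative, and the number of calls did not. The median difference of the members at 6 µM lay between -1 and -0.70 with all libraries, and leaving out 1 library gave -0.99 to -0.77 (-0.97 to -0.70 with the consensus exon value). At 4 µM it lay between -0.75 and -0.44 without 1 library, and between the treated doses at -0.41 to -0.22. TPM scaling moved the median of all genes to 0.31 at 4 µM and 0.23 at 6 µM, and that of the members to -0.28 and -0.70, so that relative to all genes the members stood at -0.59 and -0.93, against -0.58 and -0.90 as deposited.

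Genes called at 6 µM numbered 39, of which 16 were lower. The number was 531 with the consensus exon value, 512 with the core exon value, 20 with TPM (1 lower and 19 higher), 67 with median ratio scaling, 16 without trend, and 15 to 74 without 1 library. At 4 µM 8 were called (3 to 26 without 1 library). Between the treated doses 7 were called, with 3 for the consensus exon value, 4 with TPM, 3 with median ratio scaling, and 2 to 14 without 1 library (0 with the consensus exon value at the least). Members called lower at 6 µM numbered 1, and 19 with the consensus and with the core exon value, 0 with TPM and without trend, 2 with median ratio scaling, and 0 to 2 without 1 library (0 to 21 with the consensus exon value, whose genes called ranged over 11 to 566).

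With the replicate block, 4 genes were called at 6 µM, 2 at 4 µM and 1 between the treated doses, and 0 members. The consensus exon value with the block gave 701, 4 and 0 genes and 20 members. Adjusted p for AURKB was 0.265 with TPM, 0.0744 with the block and 0.062 without trend. The cause was not tested, but fits without a library have fewer samples.

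Of 714 values for single members under an alternative, 15 changed sign, all of members that differed by -0.23 to 0.09 at 6 µM: CENPC (0.04), CENPH (0.21), CENPN (0.15), CENPP (0.02), NSL1 (0.19) and ZW10 (0.05) under TPM, CENPN (0.05) with the consensus exon value, and, leaving out 1 library, CENPH (2 of 9 fits, over a range of -0.35 to 0.09), CENPP (2, -0.45 to 0.08), NSL1 (2, -0.32 to 0.13), ZW10 (1, -0.64 to 0.07) and PMF1 (1, -0.03 to 0.20). The unknown depth in reads limits genes of a few FPKM, such as SKA1, CENPI and CENPP, most.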
